A study of Mus musculus with 6 samples.

Results

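Fibre-type transcription factors are regulators that take part in whether a muscle fibre makes fast or slow contractile proteins. The 9 genes listed for this group were Six4, Eya1, Eya4, Vgll2, Tead1, Sox6, Prox1, Nfatc1 and Nfatc2, out of 34656 genes in the summed values. The RefSeq tables used here matched 8 of them, each to 1 accession, and the same 8 reached 1 TPM (transcripts per 1000000 transcripts) in 3 or more libraries and were among the 12461 genes tested. Eya4 was not matched and is not analysed here.

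The study grew primary myoblasts, the precursor cells of muscle, from skeletal muscle of 1-month-old male SfpqSM-KO mice and control mice, expanded all cultures with 20% fetal bovine serum and 2.5 ng/mL bFGF (basic fibroblast growth factor), and then kept them in differentiation medium with 2% horse serum for 4 days before polyA RNA was sequenced. Sfpq is a nuclear RNA-binding protein, and the series' title asks what its loss does to long genes and to muscle mass. There were 3 Sfpq knockout (KO) libraries and 3 control libraries. The sources used here do not give the deleted exons, the promoter that drives the recombination or the genotype of the control mice. The series gives 3 mice per genotype, but nothing ties a library to a separate mouse; the p-values therefore reflect spread among these libraries alone, which may be technical.

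Sfpq stood at 18.3, 19.3 and 14.1 TPM in the KO libraries, against 48.6, 60.5 and 49.9 TPM in the control libraries, so RNA of the targeted gene was lower in each KO library but not at 0. Markers of differentiated muscle were abundant in both groups, with a summed TPM of 52870 to 56380 in KO and 42680 to 45820 in control over 6 genes. Of markers of other cells, Ptprc, Adgre1, Emcn and Tcf21 were listed at 0 in all 6 libraries, and the summed TPM of the 4 endothelial genes was at most 0.343 in KO and 0.369 in control. The 5 immune genes summed to 0.576 to 1.52 TPM in KO and 0.744 to 1.41 TPM in control, and the 4 glial genes to 0.608 to 0.730 TPM in KO and 0.945 to 1.26 TPM in control. In the lymphatic list (39.1 to 49.6 TPM in KO and 41.5 to 60.7 TPM in control) Pdpn held nearly all and Lyve1 reached at most 0.051 TPM, in the cartilage list (12.6 to 13.2 TPM in KO and 13.01 to 15.8 TPM in control) Sox9 held nearly all and Acan reached at most 0.0122 TPM. The fibroblast list (142 to 189 TPM in KO and 166 to 248 TPM in control) was carried by Col3a1 and the smooth muscle list (624 to 832 TPM in KO and 503 to 1166 TPM in control) by Acta2, both of which cultured myoblasts may also make. Bulk libraries cannot tell fewer cells of a type from less RNA per cell.

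As background, fast-fibre genes are activated in mouse muscle by sine oculis homeobox factors such as Six4, which bind DNA and recruit Eya coactivators. TEA domain (Tead) factors bind muscle genes together with cofactors such as the vestigial-like (Vgll) proteins, and in mouse muscle both Tead1 and Vgll2 have been tied to the slow programme. Slow-fibre genes are repressed by Sox6, a Sox factor that keeps them off in fast fibres. Calcineurin, a calcium-activated phosphatase, sends NFAT factors into the nucleus in active slow fibres, and Prox1, a homeobox factor, favours the slow programme.

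No fibre-type factor passed the test over all genes. Limma with Benjamini-Hochberg adjustment called 0 of the 8, beside 0% of tested genes (0 of 12461 in either direction), where the smallest adjusted p was 0.0531. Sfpq, the targeted gene, had that limma adjusted p at a log2 difference of −1.57, so it was not called either. A factor that was not called is therefore not shown to be unchanged. At an unadjusted p under 0.05, 1 factor was lower in KO (Sox6), beside 9.62% of all tested genes, and 1 was higher (Nfatc2), beside 2.68%. Every KO library lay below every control library for 2 factors, Sox6 and Six4, where 15.3% of tested genes did so. Of the 8, Nfatc2 had each KO library above each control library, where 4.27% of tested genes did so. The other 5 had overlapping groups. The median log2 difference over the 8 was −0.13, against −0.07 over all tested genes, with 6 of 8 below 0 beside 64.5% of tested genes.

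**Figure D1:**
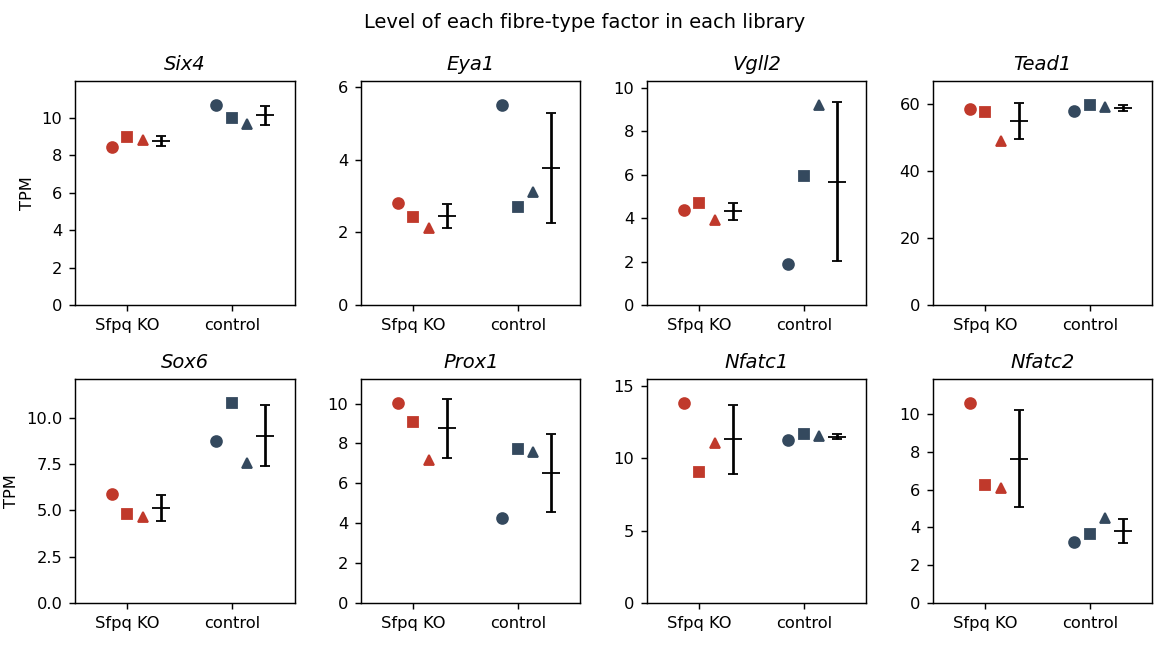
TPM (linear axes from 0) of the 8 matched fibre-type factors in the 3 Sfpq KO libraries (red) and the 3 control libraries (dark blue); circles, squares and triangles are replicates 1, 2 and 3, and the bar at the right of each group is its mean ± SD. Sox6 and Six4 are below control in each KO library, Nfatc2 is above control in each, and the other 5 overlap.

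Sox6 showed the clearest lower value. It stood at 5.90, 4.81 and 4.66 TPM in the KO libraries, against 8.73, 10.8 and 7.58 TPM in the control libraries. The groups were apart, with the highest KO library below the lowest control library. The means were 5.12 ± 0.68 TPM in KO and 9.04 ± 1.64 TPM in control (SD, n = 3 each). This is a log2 difference of −0.71 (SE 0.16, 95% interval −1.08 to −0.34), and limma's adjusted p was 0.190. Of all tested genes, 2.21% had a lower difference. Under the 14 alternatives the difference ran from −0.81 to −0.47.

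Sox6 is the longest of the 8 genes, at 569.9 kb on the minus strand of chromosome 7 (115470872 to 116040776 in GRCm38). Among the 85 tested genes that span at least 500 kb, the median log2 difference was −0.32, 35 (41.2%) had each KO library below each control library, and 16 had a lower difference than Sox6. The transcript paired with the deposited accession starts at an internal start site and covers 369.4 kb. The span also holds 3 annotated genes of the opposite strand, among them the protein-coding 1110004F10Rik. That gene stood at 74.4, 73.6 and 66.2 TPM in KO and 79.1, 84.8 and 80.4 TPM in control. None of the 42 annotated Sox6 exons overlaps an exon of these 3 genes.

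Nfatc2, an NFAT factor that in mouse muscle takes part in myoblast fusion and fibre growth, showed the clearest higher value. Its TPM was 10.6, 6.26 and 6.07 in the KO libraries, against 3.25, 3.67 and 4.48 in the control libraries. KO replicate 1 was far above the other KO libraries, and all 3 were above control. Means were 7.65 ± 2.57 TPM in KO and 3.80 ± 0.63 TPM in control (SD, n = 3 each), and the KO mean was 2.01 times the control mean. The log2 difference was 0.82 (SE 0.22, 95% interval 0.29 to 1.34) with a limma adjusted p of 0.264, and it was 0.58 without KO replicate 1. The gene spans 125.2 kb on the minus strand of chromosome 2 (168476410 to 168601657), and no annotated gene overlaps it.

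The stretches of 250 bases that precede the start sites nearest to the deposited Sox6 and Nfatc2 transcripts are shown because these 2 genes carried the clearest differences in opposite directions. Both come from RefSeq on GRCm38.p6 and are written 5′ to 3′ on the gene's own strand. Capitals mark matches to GGAAA, the core bound by NFAT factors, or to CATTCC, the MCAT core bound by Tead factors, on either strand.
Sox6, chr7:115846141-115846390, minus strand: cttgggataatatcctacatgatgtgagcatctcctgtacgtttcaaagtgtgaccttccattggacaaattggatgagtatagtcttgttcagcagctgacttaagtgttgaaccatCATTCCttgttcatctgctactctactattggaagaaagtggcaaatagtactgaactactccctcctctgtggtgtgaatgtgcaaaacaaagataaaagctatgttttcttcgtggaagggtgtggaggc
Nfatc2, chr2:168590366-168590615, minus strand: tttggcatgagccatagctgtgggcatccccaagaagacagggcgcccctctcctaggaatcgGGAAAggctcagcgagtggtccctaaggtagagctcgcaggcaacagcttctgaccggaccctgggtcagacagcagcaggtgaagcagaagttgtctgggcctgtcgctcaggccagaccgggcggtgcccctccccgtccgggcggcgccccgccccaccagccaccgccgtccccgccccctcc

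The Sox6 window held 1 CATTCC, 132 to 127 bases before the start, and GGAAA was not in it. The first motif occurs in 12.6% of 32851 RefSeq windows of the same length. The Nfatc2 window held 1 GGAAA, 187 to 183 bases before the start, and 55.6% of windows hold that motif. Neither window held TCAGGTT, the MEF3 core bound by Six4 and its relatives (3.49% of windows), or AACAAT, a Sox core (9.42%). None of the 4 motifs overlapped another in these windows. Windows were also read for Vgll2, Six4 and Prox1, which held 4, 2 and 1 GGAAA and none of the other 3 motifs. No window was read for Nfatc1, Tead1 or Eya1, so this covers 5 of the factors. The windows differed in base composition, with 41.6% G and C in the Sox6 window and 67.6% in the Nfatc2 window.

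**Figure D2:**
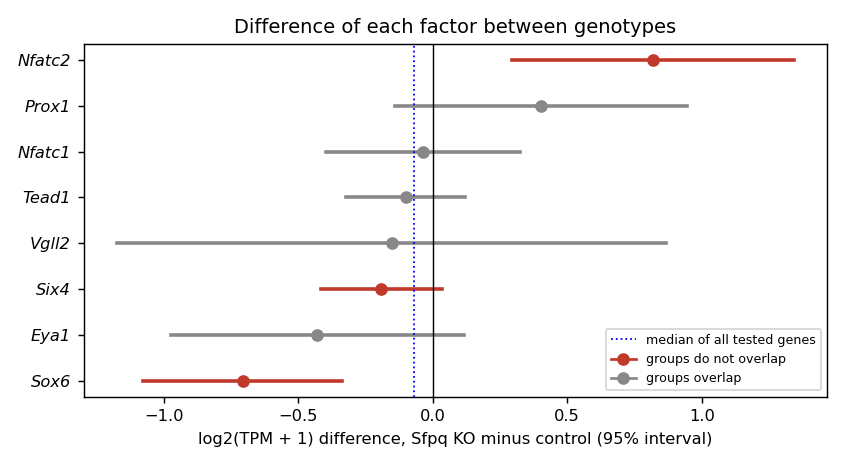
Log2(TPM + 1) difference, Sfpq KO minus control, for each of the 8 fibre-type factors with limma's 95% interval; red marks factors whose groups do not overlap and the dotted line is the median of all tested genes. The intervals of Sox6 (below 0) and Nfatc2 (above 0) exclude 0, while none of the 8 passed after adjustment over all genes.

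Nfatc1, the NFAT factor known as a sensor of nerve activity in slow fibres, showed a difference close to 0; the gap to Nfatc2 was not tested. It stood at 13.8, 9.06 and 11.03 TPM in KO, against 11.3, 11.6 and 11.5 TPM in control. The KO libraries lay on both sides of the tight control values. The log2 difference was −0.04 (95% interval −0.40 to 0.32, limma adjusted p = 0.936), and its sign turned under the scalings that centre all genes (0.03 by median-of-ratios, 0.06 by quantile normalization) and without KO replicate 2 (0.10).

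Taken as a share of the summed TPM of Nfatc1 to Nfatc4, a measure chosen after the values were seen, Nfatc2 made up 25.4%, 19.1% and 18.1% in KO and 10.04%, 9.12% and 12.6% in control. The groups did not overlap. The sum itself was near equal, 36.04 ± 4.97 TPM in KO and 36.06 ± 3.96 TPM in control (SD, n = 3 each). Nfatc3, the most abundant of the 4, made up 39.6% to 47.3% in KO and 46.4% to 55.1% in control. Nfatc4 stood at 0.795, 1.98 and 1.10 TPM in KO, against 2.80, 2.75 and 2.70 TPM in control, with a log2 change estimate of −0.74 (SE 0.20, limma adjusted p = 0.266). An exact permutation test of a share cannot go below p = 0.1 with 3 against 3.

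Around these factors, the list of calcineurin and NFAT genes held 20 tested of 25, of which 0 passed, 4 were lower in KO without overlap (Homer1, Ppp3ca, Nfatc4 and Gsk3b) and 2 were higher (Nfatc2 and the calmodulin gene Calm3). These are 20% and 10% of the list, beside 15.3% and 4.27% of all tested genes, and the median log2 difference was −0.05, against −0.07 over all tested genes. The list includes the factors Nfatc1 and Nfatc2 themselves. Ppp3ca, the alpha catalytic subunit of calcineurin, stood at 37.8, 32.5 and 34.7 TPM in KO, against 54.4, 45.9 and 46.6 TPM in control, with a log2 change estimate of −0.47 (SE 0.10, limma adjusted p = 0.184). Homer1, a scaffold of receptors and calcium channels, was at 7.08, 6.42 and 7.27 TPM in KO and 10.3, 9.62 and 9.85 TPM in control (−0.46, SE 0.10, limma adjusted p = 0.178). Rcan1, an inhibitor of calcineurin whose own transcription NFAT drives and which was chosen after its value was seen, overlapped at 46.01, 48.9 and 41.4 TPM in KO and 44.9, 53.8 and 48.4 TPM in control.

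Prox1 had a higher mean in KO, but its groups overlapped. Its TPM was 10.04, 9.08 and 7.15 in the KO libraries and 4.27, 7.71 and 7.56 in the control libraries. Control replicate 1 was the low library, and KO replicate 3 lay below the other 2 control libraries. The log2 difference of 0.40 (SE 0.23, 95% interval −0.14 to 0.95, limma adjusted p = 0.508) was 0.16 without control replicate 1. With median-of-ratios scaling or quantile normalization the groups did not overlap, with differences of 0.47 and 0.51. The antisense gene Prox1os overlaps 2 of 9 annotated Prox1 exons, and the sources used here do not say how reads were assigned by strand.

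Set against each other, Prox1 TPM exceeded Sox6 TPM in each KO library, with ratios of 1.70, 1.89 and 1.53, and was below it in each control library, with ratios of 0.489, 0.713 and 0.998. The ratio was chosen after the values were seen, and Sox6 alone already separates the groups. Control replicate 3 was close to equal.

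**Figure D3:**
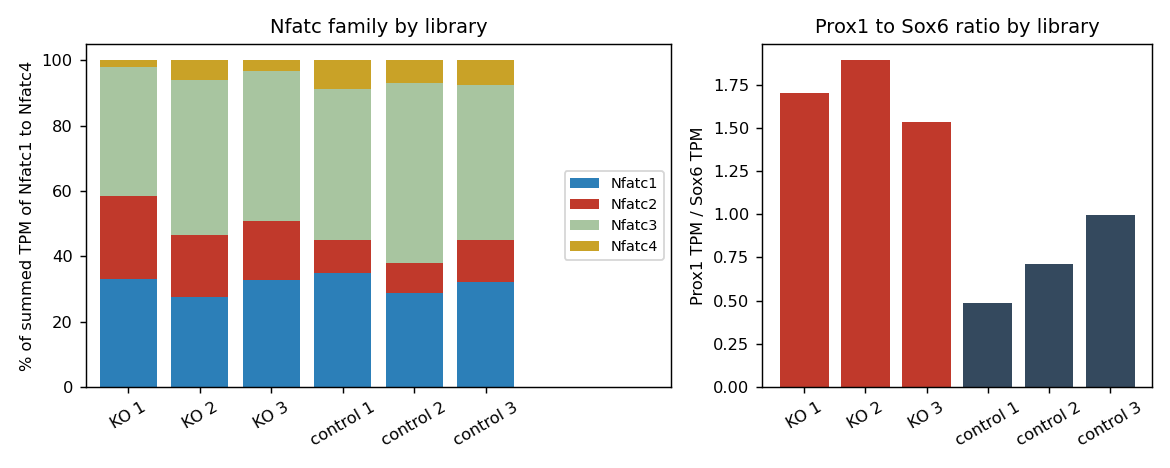
Left, the percentage of the summed TPM of Nfatc1 to Nfatc4 held by each gene in the 3 KO and the 3 control libraries; right, Prox1 TPM divided by Sox6 TPM in the same libraries. The Nfatc2 share is 18.1% to 25.4% in KO and 9.12% to 12.6% in control, and the ratio is 1.53 to 1.89 in KO and 0.489 to 0.998 in control.

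Of the fast-programme regulators, Six4, a DNA-binding homeodomain factor, differed little but without overlap. It stood at 8.44, 8.96 and 8.85 TPM in KO, against 10.7, 10.02 and 9.70 TPM in control. The spread was small in both groups, and the log2 difference was −0.19 (SE 0.09, 95% interval −0.42 to 0.03, limma adjusted p = 0.462). Among all tested genes 26.1% had a lower difference, and after quantile normalization the difference was −0.09 and the groups overlapped.

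Eya1, a coactivator and phosphatase that works with Six4 and its relatives, had the lowest mean of the 8 in both groups, close to that of Nfatc2 in control. It stood at 2.80, 2.43 and 2.12 TPM in KO, against 5.50, 2.70 and 3.12 TPM in control. Control replicate 1 was the high library, and KO replicate 1 lay above control replicate 2. The log2 difference of −0.43 (SE 0.23, 95% interval −0.97 to 0.12, limma adjusted p = 0.489) was −0.18 without control replicate 1.

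The list of sine oculis, Eya and Dach genes held 7 tested of 10, with 0 passed, 1 lower without overlap (Six4; 14.3%, beside 15.3% of all tested genes) and a median log2 difference of −0.08, against −0.07 over all tested genes. Eya3 stood at 18.9 ± 0.66 TPM in KO and 20.7 ± 1.62 TPM in control, and Six5 at 6.33 ± 0.62 and 5.41 ± 0.48 TPM in KO and control (SD, n = 3 each). Eya2 varied from 0.967 to 8.35 TPM in KO and was listed at 0 in control replicate 1, with 3.23 and 1.53 TPM in the other control libraries. Dach1 and Dach2, cofactors of the same network, were under the filter on low values.

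Vgll2, a muscle cofactor of Tead proteins, had the largest standard error of the 8 on the log2 scale, at 0.43. It stood at 4.38, 4.70 and 3.91 TPM in KO, within the range of control at 1.90, 5.96 and 9.22 TPM. The KO libraries were close together while the control libraries differed several times over. The log2 difference was −0.15 with a 95% interval of −1.17 to 0.87 (limma adjusted p = 0.904). It was −0.67 without control replicate 1 and 0.24 without control replicate 3, so neither a direction nor near-equal levels can be read from these libraries.

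Tead1, which binds MCAT elements of muscle genes, was the most abundant of the 8 in both groups. It stood at 58.5, 57.4 and 48.8 TPM in KO and 57.8, 59.6 and 58.9 TPM in control. The low library was KO replicate 3, and the other 2 KO libraries were at the control level. The log2 difference was −0.10 (SE 0.09, 95% interval −0.32 to 0.12, limma adjusted p = 0.688). Its relatives were of the same order: in KO and control, Tead2 averaged 74.3 and 63.6 TPM, Tead3 54.5 and 46.4 TPM, and Tead4 108.0 and 116.2 TPM. Of the summed TPM of the 4 Tead genes, Tead1 made up 17.6% to 19.8% in KO and 17.9% to 23.9% in control. The Tead2 share, chosen after its values were seen, was 24.8% to 26.3% in KO and 21.4% to 23.0% in control, without overlap. The shares of Tead3 and Tead4 overlapped.

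In the list of Tead, Vgll and Hippo genes, 21 of 23 were tested, 0 passed, 5 were lower in KO without overlap and 0 higher. The 5 are 23.8% of the list, beside 15.3% of all tested genes. The median log2 difference was −0.08, against −0.07 over all tested genes, and it was −0.18 without control replicate 1 and −0.03 without control replicate 2 (−0.10 and −0.04 over all genes). These genes were Nf2, Lats1, Stk3 and Sav1 of the Hippo kinase branch and the coactivator Yap1. Nf2, which encodes merlin, stood at 44.5, 43.3 and 45.6 TPM in KO, against 55.6, 55.3 and 53.6 TPM in control (log2 difference −0.30, SE 0.07, limma adjusted p = 0.234). Lats1, a kinase that inhibits Yap1, averaged 6.31 ± 0.20 TPM in KO and 7.91 ± 0.40 TPM in control, and Stk3, the kinase upstream of it, 7.27 ± 1.09 and 9.37 ± 0.73 TPM in KO and control (SD, n = 3 each).

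By level, the order from high to low was Tead1, Nfatc1, Prox1, Six4, Nfatc2, Sox6, Vgll2 and Eya1 in KO. In control it was Tead1, Nfatc1, Six4, Sox6, Prox1, Vgll2, Nfatc2 and Eya1. TPM is per length, so levels of different genes can be set side by side as far as the lengths used fit the transcripts made. The sources used here do not name the counter or the annotation release. The order of genes with close levels is therefore approximate. In KO the ranges of neighbours did not overlap between Tead1 and Nfatc1, between Nfatc2 and Sox6, and between Vgll2 and Eya1. In control they did not overlap between Tead1 and Nfatc1 or between Nfatc1 and Six4. All other neighbours overlapped in their group. Nfatc2 had rank 5 in KO and rank 7 in control, and Sox6 rank 6 in KO and rank 4 in control.

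Contractile genes of the slow and fast programmes had medians on opposite sides of 0, and none passed; the fast median was close to that of all genes without control replicate 1. Of 18 slow-fibre genes, 14 (77.8%, beside 35.5% of all tested genes) had a log2 difference above 0. Each KO library was above each control library for 4 (22.2%, beside 4.27%; Tnnc1, Tnni1, Myoz2 and Casq2), and 0 had the reverse. The median was 0.35, and 0.27 to 0.39 with 1 library left out. Tnni1, slow troponin I and a Sox6 target known from mouse muscle, stood at 18980, 16280 and 14510 TPM in KO, against 12790, 12440 and 13660 TPM in control, with a log2 change estimate of 0.35 (SE 0.17, limma adjusted p = 0.453). Casq2, the slow and cardiac calsequestrin, was at 1109, 1012 and 1059 TPM in KO and 887, 953 and 796 TPM in control. Myh7, a slow myosin heavy chain, had overlapping groups, at 1477, 1603 and 589 TPM in KO and 600, 430 and 1173 TPM in control. Its log2 difference was 0.73 (SE 0.49, limma adjusted p = 0.576). Tnni1, Casq2 and Myh7 were chosen after their values were seen.

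The slow genes with the smallest p were Tnnc1, Myl2 and Myoz2. Tnnc1, slow troponin C, stood at 6332, 6768 and 6484 TPM in KO, against 3992, 5195 and 5005 TPM in control (log2 difference 0.47, limma adjusted p = 0.310). Myl2, the slow regulatory light chain, was at 816, 1174 and 442 TPM in KO and 205, 158 and 504 TPM in control, so KO replicate 3 lay below control replicate 3. Myoz2, a Z-disc calcineurin-binding protein of slow fibres, was at 362, 321 and 321 TPM in KO and 205, 308 and 217 TPM in control.

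Of 20 fast-fibre genes, 15 (75%, beside 64.5% of all tested genes) were below 0, and 0 passed. Without overlap, 3 were lower (15%, beside 15.3%; Myh1, Tnni2 and Atp2a1) and 1 was higher (5%, beside 4.27%; Mylpf), so these shares were near those of all genes. The median log2 difference of −0.28 rested largely on control replicate 1, without which it was −0.08, against −0.10 over all genes; it was −0.14 without KO replicate 2. Myh1, the fast IIx myosin heavy chain, stood at 2991, 2606 and 2900 TPM in KO, against 8075, 4218 and 6710 TPM in control (−1.11, SE 0.24, limma adjusted p = 0.185). Tnni2, fast troponin I, averaged 3400 ± 152 TPM in KO and 4734 ± 1162 TPM in control, and Atp2a1, the fast calcium pump, 4774 ± 449 and 6972 ± 1731 TPM in KO and control (SD, n = 3 each). The summed slow genes divided by the summed fast genes gave 0.804, 0.920 and 0.729 in KO and 0.510, 0.683 and 0.789 in control, and the groups overlapped at control replicate 3.

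**Figure D4:**
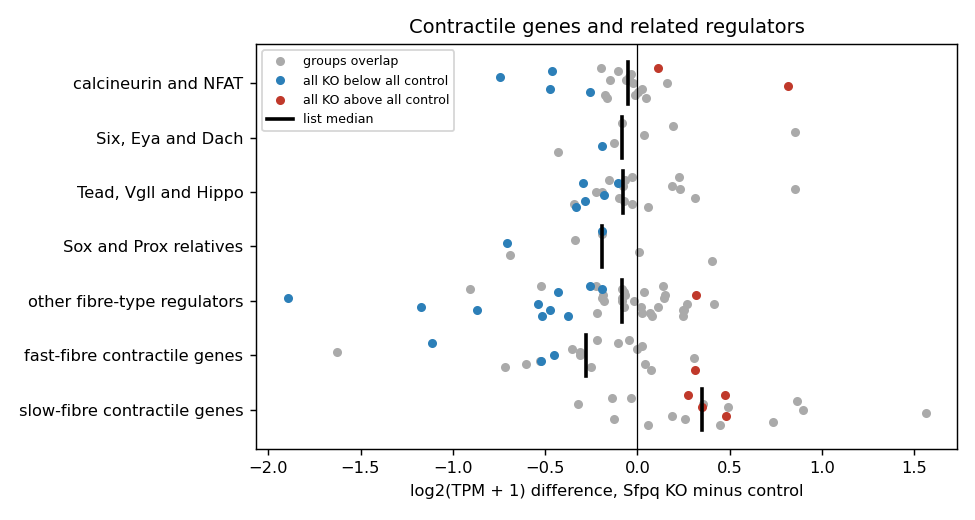
Log2(TPM + 1) difference, Sfpq KO minus control, of each tested gene in 7 lists of contractile genes and fibre-type regulators; black bars are list medians, blue and red points are genes with every KO library below or above every control library. The slow-fibre list has a median of 0.35 and the fast-fibre list −0.28, while the 5 lists of regulators lie between −0.19 and −0.05; without control replicate 1 the fast-fibre median is −0.08.

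In the same libraries, of 6 markers of differentiated muscle, 5 were above 0 (83.3%, beside 35.5% of all tested genes). Acta1, Des and Mybph were higher in KO without overlap (50%, beside 4.27% of all tested genes). The median log2 difference of the 6 was 0.30, against −0.07 over all tested genes. The precursor markers Pax7 and Myf5 had differences of −0.38 and −0.68 with overlapping groups, and their summed TPM was 28.6 to 52.4 in KO and 52.7 to 55.8 in control. Control replicate 1, which was high for Eya1 and low for Prox1 and Vgll2, also had the highest Myh4 (3035 TPM, against 844 and 961 TPM in the other control libraries) and the highest Dcn, a fibroblast gene (4.39 TPM, against 0.787 and 0.493 TPM). The part of these markers in the values of the factors was not tested.

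Other regulators of fibre type were 39 tested of 40, with 0 passed, 10 lower in KO without overlap, 1 higher (the histone deacetylase Hdac5) and a median log2 difference of −0.08, against −0.07 over all tested genes. The genes without overlap are 25.6% lower and 2.56% higher, beside 15.3% and 4.27% of all tested genes; without control replicate 1 the median was −0.19, against −0.10 over all genes. The 3 with the smallest p were Esrrb, an estrogen-related receptor, Nr4a3, an activity-induced nuclear receptor, and Runx1, a factor of denervated muscle and muscle precursors. Nr4a3 stood at 5.88, 9.11 and 5.66 TPM in KO, against 17.3, 14.6 and 17.6 TPM in control (log2 difference −1.17, SE 0.18, limma adjusted p = 0.108). Runx1 stood at 37.1, 37.4 and 35.7 TPM in KO, against 52.1, 58.6 and 49.0 TPM in control (−0.52, SE 0.09, limma adjusted p = 0.143), and Esrrb at 7.67, 4.04 and 6.77 TPM in KO, against 28.02, 17.6 and 31.3 TPM in control. Hdac4, a repressor of Mef2 factors chosen after its value was seen, was also among the 10, at 8.98 ± 0.74 TPM in KO and 12.02 ± 1.67 TPM in control (SD, n = 3 each). The rest of the 10 were Esrrg (log2 difference −0.87), Ppargc1b (−0.54), Thrb (−0.47), Ppargc1a (−0.43), Esrra (−0.26) and Fnip1 (−0.19).

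Among Sox and Prox relatives 7 of 11 were tested, 0 passed, 2 were lower without overlap (Sox6 and Sox4; 28.6%, beside 15.3% of all tested genes) and the median log2 difference was −0.19, against −0.07 over all tested genes. The median was −0.32 without control replicate 1. Sox6 and Prox1 are themselves among the 7, so this list is not separate from the factors. Sox5, the nearest relative of Sox6 and also a SoxD factor, was under the filter on low values, as was Sox13, the other SoxD gene. Sox8 stood at 9.32 ± 3.73 TPM in KO and 15.5 ± 5.16 TPM in control, and Sox9 at 12.8 ± 0.26 and 14.9 ± 1.62 TPM in KO and control (SD, n = 3 each).

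Over the 6 libraries, the genes with the pattern nearest to Sox6 were Fam120c, Ttc28 and Pon3, with a root-mean-square distance of 0.103 to 0.107 in centred log2(TPM + 1) among 6880 genes of a mean TPM within 4-fold. Pon3, a paraoxonase, stood at 7.42, 6.35 and 7.35 TPM in KO and 13.2, 14.2 and 11.2 TPM in control. Nearest to Nfatc2 among 6526 genes were Grk5, Spns2 and Arhgap20, at distances of 0.122 to 0.145. Grk5, a kinase of G protein-coupled receptors, stood at 5.59, 2.95 and 2.97 TPM in KO and 1.96, 1.56 and 2.11 TPM in control, and shared the high value of KO replicate 1. With so many candidates and 6 libraries such nearness is a description alone.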

How the data were processed

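PolyA RNA of 6 libraries (3 Sfpq knockout, 3 control, grouped by title) was sequenced on an Ion Proton. Each deposited file holds TPM computed by the authors for 1 library, with 1 value per RefSeq accession and a total of 1000000. Per the submitters' processing notes, STAR 2.4.1d and mm10 were used; no source used here names the counter, the annotation release or the strand setting. TPM keeps no read depth, so depth is unknown and counting intervals are not possible. Out of 34671 accessions, 30822 were named through RefSeq's GRCm38.p6 gene table and 103 through GENCODE M21. The remaining 3746, with 1.19% to 1.27% of TPM, stayed in the tests under their accession. Nearly every gene had 1 accession, so the planned description of isoforms could not be made.

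The 12461 genes that reached 1 TPM in 3 or more libraries entered a limma 3.58.1 fit (R 4.3.3) of log2(TPM + 1) (intensity trend, no block, 2-sided, Benjamini-Hochberg adjustment at 0.05); this scale understates the change of low genes. Intervals are limma's at 95%. On simulated data for this comparison over 12461 genes the test recovered 74% of genes changed by 1 and 96% of those changed by 2 on the log2 scale, with 8 false calls. Those changes were put only into genes with a mean log2(TPM + 1) above 3, and the noise was independent between libraries. Sox6, Nfatc2, Vgll2 and Eya1 lie below that level, so the recovery rates do not apply to them. In the deposited data Sfpq (log2 difference −1.57) and Esrrb (−1.89) lie above it and did not pass. Their limma adjusted p was 0.0531 and 0.105. The simulated rates therefore cannot be taken as the recovery in these libraries. The factors and gene lists were chosen with earlier results of these data known. The lists of related regulators include those of the 8 factors that belong to them. Named genes are the 8 factors, from each list up to 3 further tested genes with the smallest p, the 3 genes nearest in pattern to each of the 2 factors with the smallest p, Sfpq and markers of cell types. Chosen after their values were seen were Rcan1, Tnni1, Casq2, Myh7, Hdac4, Hdac5, Esrrg, Ppargc1b, Thrb, Ppargc1a, Esrra, Fnip1, Calm3, Gsk3b, Mylpf, Sav1, Yap1, Myh4, Nfatc3, Tead2, Tead3, Tead4, Dach1, Dach2, Sox5, Sox13, Prox1os and 1110004F10Rik. The 14 alternatives covered pseudocount, filter, scaling, trend, a replicate block and each library left out. Tables and plots were made with Python 3.11.15, pandas 2.3.3 and matplotlib 3.10.9.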

Additional observations from a re-analysis of the deposited data

How the results depend on the processing

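Under the 14 alternatives 0 of the 8 factors passed in limma, and 107 of 111 recomputed differences kept their sign; Eya1 was under the filter at a mean TPM of 5. The exceptions were Vgll2 without control replicate 3 (0.24) and Nfatc1 with median-of-ratios scaling (0.031), quantile normalization (0.062) and without KO replicate 2 (0.10); the cause was not tested. Leaving out 1 library gave Sox6 −0.81 to −0.58, Nfatc2 0.58 to 0.94, Prox1 0.16 to 0.53, Six4 −0.22 to −0.16, Eya1 −0.59 to −0.18, Tead1 −0.15 to −0.02, Vgll2 −0.67 to 0.24 and Nfatc1 −0.18 to 0.10. Over all genes, calls numbered 2 higher and 11 lower with a pseudocount of 5, 1 and 6 at a mean TPM of at least 5, and 1 and 1 without trend. Factors above control without overlap numbered 2 with median-of-ratios scaling and with quantile normalization (1 to 2 with a library left out). Factors below numbered 1 with quantile normalization (2 to 5 with a library left out, where fewer libraries make separation easier). The shares of all tested genes without overlap were not taken for these settings, so the counts say nothing particular to the factors.

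The median of the sine oculis, Eya and Dach list was 0.007 with no filter on low values and −0.009 with median-of-ratios scaling. It was −0.199 without control replicate 2 and 0.042 without control replicate 3. That of the other regulators was −0.194 without control replicate 1, the low end of −0.194 to −0.042 with a library left out. The other 93 of 98 list medians moved by less than the spread between libraries. Among the 93 were those of the fast-fibre genes, −0.374 to −0.081 with a library left out, where that spread was 0.235. At an unadjusted p under 0.05 the split was 719 higher and 710 lower with median-of-ratios scaling, against 334 and 1199 as deposited. Deviations of same-numbered libraries correlated at −0.26, −0.25 and 0.05, and those of differently numbered libraries at −0.265 to 0.412. With 3 libraries per group these values cannot decide whether libraries were paired. A replicate block called 0 factors and left limma's adjusted p at 0.439 for Sox6 and 0.536 for Nfatc2. The unknown depth limits what can be said of genes of a few TPM such as Eya1.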
